A study of Danio rerio with 32 samples.

Results

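Fructose bisphosphatase is the gluconeogenic enzyme that removes 1 phosphate from fructose bisphosphate, and zebrafish carry the paralogous genes *fbp1a* and *fbp1b* for the form that predominates in mammalian liver. Members were all array probes whose annotated accession is a RefSeq transcript of either gene. These were 3 of the 43603 probes on the array and 2 of the 10536 gene symbols to which probes could be matched. *fbp1a* has the probes A_15_P116361 and A_15_P206731, which carry the same accession, and *fbp1b* has the single probe A_15_P140861. All 3 are among the 5481 probes of the deposited value table. Both genes lie on chromosome 5 of the zebrafish genome, *fbp1a* directly beside *fbp2*, the gene named for the form found in mammalian muscle, and *fbp1b* elsewhere, between *ttc33* and *erlin2*.

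Gluconeogenesis makes glucose from lactate, glycerol and amino acids, and the liver uses it to hold blood glucose between meals. Fructose bisphosphatase opposes phosphofructokinase, so the balance of these enzymes sets whether carbon runs towards glucose or towards pyruvate. In mammals the enzyme is inhibited by AMP and by the regulatory sugar made by the PFKFB enzymes, and its transcript is held down by insulin and raised by glucagon and cortisol.

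Liver transcripts of adult male Tübingen zebrafish were measured on single-colour Agilent arrays. By their labels the fish were 6 to 9 months old. Each array held equal RNA masses from 4 or 5 fish, so differences between arrays are differences between pools. The first experiment exposed fish for 24 h to the organophosphate pesticide dichlorvos (DDVP) in flow-through aquaria. It has 8 arrays of unexposed fish in 2 control sets of 4, and 4 arrays each at a low, mid and high concentration (6, 19 and 32 mg/L on the labels, with somewhat lower measured values at mid and high in the methods). The second used the same aquaria without any toxicant, and compared fish fed 4 h before harvest, fish left unfed for 29 h by the methods (24 h on the labels) and fish left unfed for 50 h, with 4 arrays each on 3 slides. The methods do not say how many aquaria each group had, so pools of a group may share an aquarium. In that case the errors given here leave out the spread between aquaria. The labels name no mutation or transgene in any group. In whole liver, fewer cells of a type and less RNA per cell cannot be told apart.

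The DDVP values are the log2 values that the authors deposited, and the feeding values were computed from the scanner files. Array medians of the deposited table lay between 9.52 and 9.72 on the DDVP arrays, and 48.9 to 56.7% of the spots were well above background on the feeding arrays. In every probe of the table control set 1, control set 2 and the unfed 29 h group have the same mean to within 1e-04, so no distance between the DDVP and feeding groups can be read from it, and standard errors against 8 controls are too small because the reference is known no better than from 4. Neither labels nor methods say which control set goes with which concentration. If concentrations were run with different sets, the standard error of a step between them leaves out the error of equalizing the control means. All 6 matched genes of a list of 12 hepatocyte markers were well above background on every feeding array. One feeding array stood apart, unfed 50 h replicate 2, in which the summed level of 6 muscle markers was 17.66 on the log2 scale against 11.11 to 12.31 on the other 11 arrays.

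The *fbp1* paralogs diverged under DDVP. *fbp1a* was 5.94 times the control level at the low concentration, 5.25 times at mid and 4.64 times at high, whereas *fbp1b* did not differ detectably from the controls at the low concentration and fell at mid and high. The authors also reported more *fbp1a* transcript under DDVP. They list the *fbp1b* probe, as *fbp1*, among the genes compared with mice in which the regulator Nrf2 is constantly active. They left *fbp1b* out of their metabolic map, judging that high background transcription appeared to confound its behaviour. How this bears on the single *fbp1b* probe was not tested. The divergence is named in the rule by which these genes were selected, so its size is given as a description. The adjusted p values of *fbp1a* and *fbp1b* in the DDVP comparisons are descriptions for the same reason and lend the divergence no further support.

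Counts of called members say little here, because the table holds only probes that the authors had selected for differing among these groups. That selection used the same arrays, so the adjusted p values given below for other genes under DDVP are descriptions too. A call here means an adjusted p of at most 0.001 together with a change of 1.8-fold or more, and 30.7, 62.6 and 74.6% of the probes in the table met it at low, mid and high. Exposed and control arrays did not overlap in 50.5, 84.4 and 89.4% of them. Both *fbp1a* probes were called as higher at all 3 concentrations, as were 13.4, 31.9 and 39.4% of the table. *fbp1b* was called as lower at mid and high, as were 30.7 and 35.1% of the table.

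In probe A_15_P116361 of *fbp1a* the controls ranged from 10.58 through a median of 11.14 to 11.19 on the deposited log2 scale. The 4 arrays of the low concentration read 13.67, 13.56, 13.51 and 13.58, those of mid 13.64, 13.27, 13.31 and 13.38, and those of high 13.27, 13.24, 13.29 and 13.08. The exposed arrays thus all lay above all controls, and the highest of them belonged to the low concentration. The change against controls was 2.57 at low, 2.39 at mid and 2.21 at high (log2 fold change, SE 0.12, limma adjusted p 2.06e-13, 1.37e-13 and 2.25e-13). The difference between mid and low was -0.18 (95% confidence interval -0.47 to 0.11, limma adjusted p 0.26), and that between high and mid was also -0.18 (-0.46 to 0.11, adjusted p 0.396), so neither step passed the threshold.

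**Figure D1:**
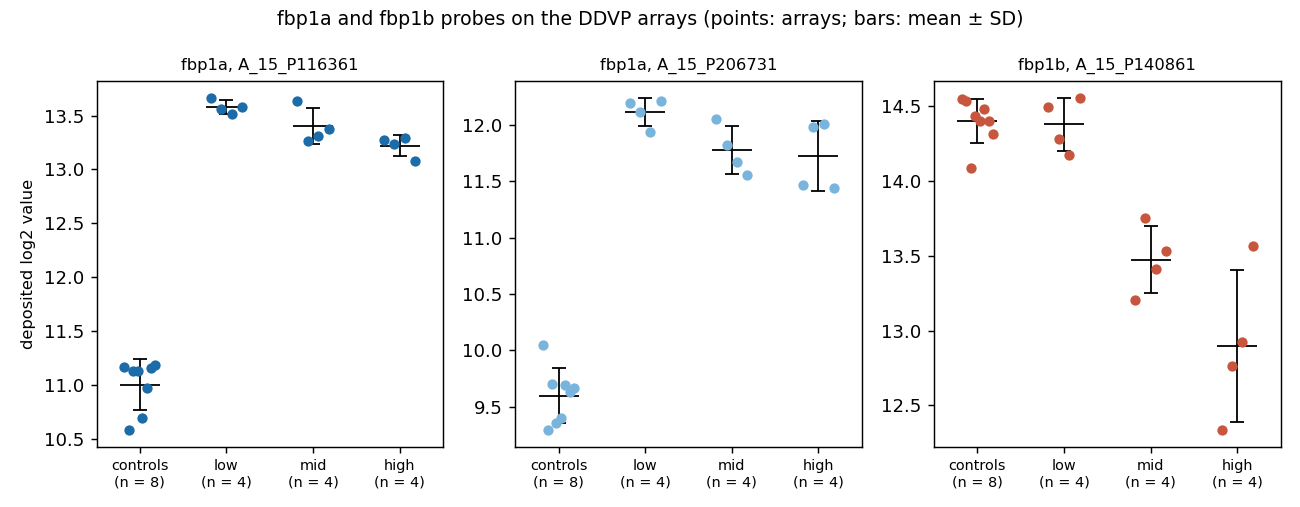
Deposited log2 values (vertical axis, with its own range in each panel) of the 3 probes on the 20 DDVP arrays, by control and concentration group; points are arrays, black bars the mean ± SD. Both *fbp1a* probes stand above every control at all 3 concentrations, while *fbp1b* overlaps the controls at the low concentration and lies below them at mid and high.

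The other *fbp1a* probe, A_15_P206731, gave the same picture at a lower signal. Its controls ranged from 9.29 through a median of 9.65 to 10.05. The arrays read 12.20, 12.12, 11.93 and 12.21 at low, 12.05, 11.82, 11.67 and 11.56 at mid and 11.47, 11.98, 12.01 and 11.44 at high, again without overlap with the controls. Its log2 fold change was 2.51, 2.18 and 2.12 (SE 0.14, limma adjusted p 4.93e-12, 1.06e-11 and 9.03e-12). The probes of *fbp1a* therefore differed by at most 0.22 in their estimates at any concentration. Across the 12 exposed arrays their values had a Pearson correlation of 0.75, and across the 8 controls of 0.64, which describes these arrays and carries no test.

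In *fbp1b* the controls ranged from 14.08 through a median of 14.42 to 14.54. The arrays of the low concentration read 14.49, 14.28, 14.17 and 14.55, within the range of the controls but for the last. Those of mid read 13.21, 13.75, 13.41 and 13.53, and those of high 12.34, 12.77, 12.92 and 13.57. Every mid and high array lay below every control, while mid and high overlapped each other through replicate 4 of high, the least changed array of its group.

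The log2 fold change of *fbp1b* was -0.02 at the low concentration (95% confidence interval -0.36 to 0.31, limma adjusted p 0.905), an interval that reaches a level 1.28-fold lower. It was -0.92 at mid (SE 0.16, adjusted p 1.54e-05) and -1.50 at high (SE 0.16, adjusted p 1.34e-08), which put *fbp1b* 1.90-fold and 2.83-fold below the controls. The call at mid rests on a change close to the limit of 1.8-fold and was lost without mid replicate 1, where the change was -0.83. The call at high held without any single array. With control set 1 or 2 alone, the adjusted p at high was 2.51e-06 or 1.44e-06 and that at mid 4.68e-04 or 3.01e-04. The control sets share their means, so these fits could change the errors but not the estimates.

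Between concentrations, *fbp1b* stepped down once past the threshold. It was lower at mid than at low by a log2 difference of -0.90 (SE 0.19, limma adjusted p 2.87e-04), and this call was lost without low replicate 1, low replicate 4, mid replicate 1 or mid replicate 3 (adjusted p between 0.00105 and 0.00173). From mid to high the further difference was -0.58 (SE 0.19, adjusted p 0.0381) and did not pass. Of all 5481 probes 25.8% passed in the first of these steps and 1.37% in the second.

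Taken as the difference between the paralogs on the same array, with the mean of the controls set to 0, *fbp1a* minus *fbp1b* was 2.56, 2.67, 2.73 and 2.41 at the low concentration. It was 3.82, 2.91, 3.29 and 3.24 at mid and 4.33, 3.86, 3.76 and 2.91 at high, while the 8 controls lay between -0.56 and 0.45. On average the ratio of *fbp1a* to *fbp1b* signal was thus 6.04, 9.95 and 13.1 times that of the controls at low, mid and high. At low the whole divergence lay in *fbp1a*. From low to high it grew by 1.12 on the log2 scale, made up of a high minus low difference of -1.48 in *fbp1b* and of -0.36 in *fbp1a*. The levels of the paralogs themselves are not compared, because they are read by different probes.

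Across the 20 DDVP arrays the Pearson correlation of *fbp1a* (A_15_P116361) with *fbp1b* was -0.54, and among the 12 exposed arrays alone it was 0.60, both as descriptions. Among the exposed arrays both genes had their highest group mean at the low concentration, whereas the controls join low *fbp1a* with high *fbp1b*.

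**Figure D2:**
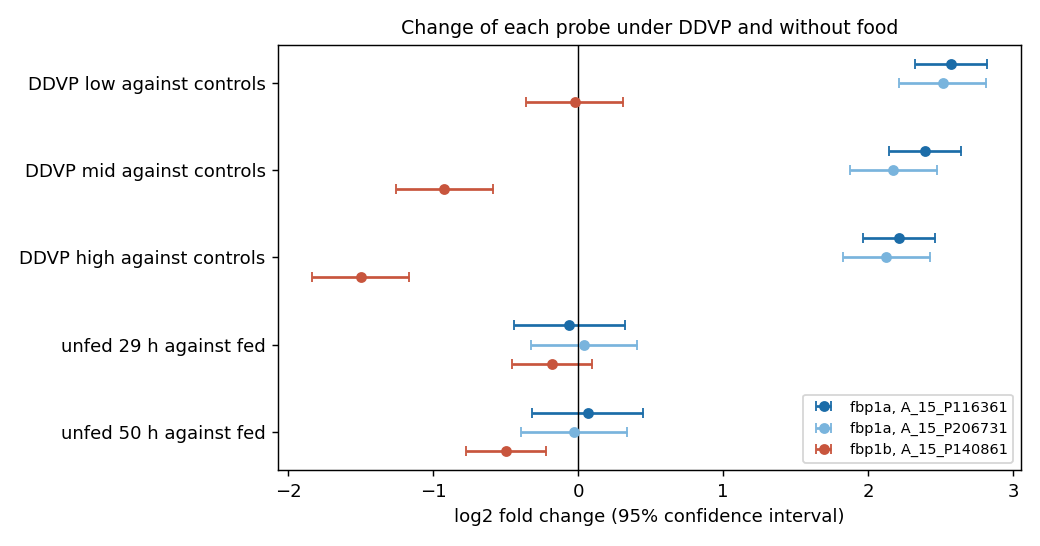
Log2 fold change (horizontal axis) of each probe in 3 DDVP and 2 feeding comparisons, with 95% confidence intervals from limma. Under DDVP the *fbp1a* probes lie between 2.12 and 2.57 and *fbp1b* between -1.50 and -0.02; without food no *fbp1a* estimate is farther from 0 than 0.07.

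*fbp2*, the neighbour of *fbp1a*, belongs to the pathway list and not to the members. Its probe A_15_P149081 had a log2 fold change of -1.14 at low, -1.47 at mid and -0.91 at high (SE 0.16, limma adjusted p 2.41e-06, 2.29e-08 and 1.28e-05), so it was lower where the adjacent gene was higher. These values come from the bottom of the signal range. On the feeding arrays its median signal was 50 to 70 intensity units over a local background of 34 to 54, with a signal to noise ratio of 0.27 to 2.62, and it did not reach the filter for testing there.

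The genes whose values ran most like those of *fbp1a* over the 20 DDVP arrays, by Pearson correlation and 1 probe a gene, were *tat* (0.986), which encodes tyrosine aminotransferase, *pnp5a* (0.983), a purine nucleoside phosphorylase gene, *arg2* (0.980), the mitochondrial arginase gene, *arl13a* (0.980) and *pcgf5b* (0.980), which encodes a Polycomb ring finger protein. The distance between exposed and control arrays enters every such value. *tat* had log2 fold changes of 3.05, 2.57 and 2.25 at low, mid and high, in the same descending order as *fbp1a*. Those of *arg2* were nearly level, at 2.51, 2.56 and 2.59.

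For *fbp1b* the nearest were *tmem11* (0.957), which encodes a protein of the mitochondrial inner membrane, *pgm1* (0.956), the phosphoglucomutase gene that links glycogen to glucose 6-phosphate, *tmem14a* (0.952), *zgc:92744* (0.943) and *tbxas1* (0.937), the thromboxane synthase gene. In all 5 the log2 fold change was between -0.33 and 0.10 at the low concentration and between -2.42 and -0.65 at high. For *pgm1* it was -0.33, -1.32 and -1.85.

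Lists of genes of gluconeogenesis, glycolysis, the steps they share, the control of fructose bisphosphatase by its sugar inhibitor, glucose and lactate transport and transcriptional regulators held 89 genes, of which 64 had a probe on the array and 24 genes with 33 probes were in the value table. At low 11 of the 33 probes were called as higher and 5 as lower, at mid 14 and 7, and at high 16 and 7. Their median log2 fold change was 0.56, 0.59 and 0.74, beside 0.05, 0.45 and 0.51 over all probes tested. Of all 5481 probes 30.7, 62.6 and 74.6% were called.

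Within gluconeogenesis the called genes split in direction at the high concentration. Of the 18 genes listed for it 12 had a probe on the array and 6 were in the table. *pck1*, *pcxa* and *pcxb* had no matched probe, and *g6pc1a.1* was on the array but not in the table. *got1*, the cytosolic aspartate aminotransferase, had a log2 fold change of 3.28, and *got2b*, a mitochondrial one, of 1.56 (limma adjusted p 4.11e-14 and 1.58e-11). *pck2*, the mitochondrial phosphoenolpyruvate carboxykinase, changed by -1.56 and *g6pc3*, a glucose 6-phosphatase catalytic subunit, by -0.96 (adjusted p 1.42e-08 and 4.27e-07). The course of *pck2* over the concentrations, -0.19, -1.24 and -1.56, was close to that of *fbp1b*, with no call at low. For *got1* it was 2.87, 3.26 and 3.28, so most of its change was present at the low concentration, as in *fbp1a*.

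**Figure D3:**
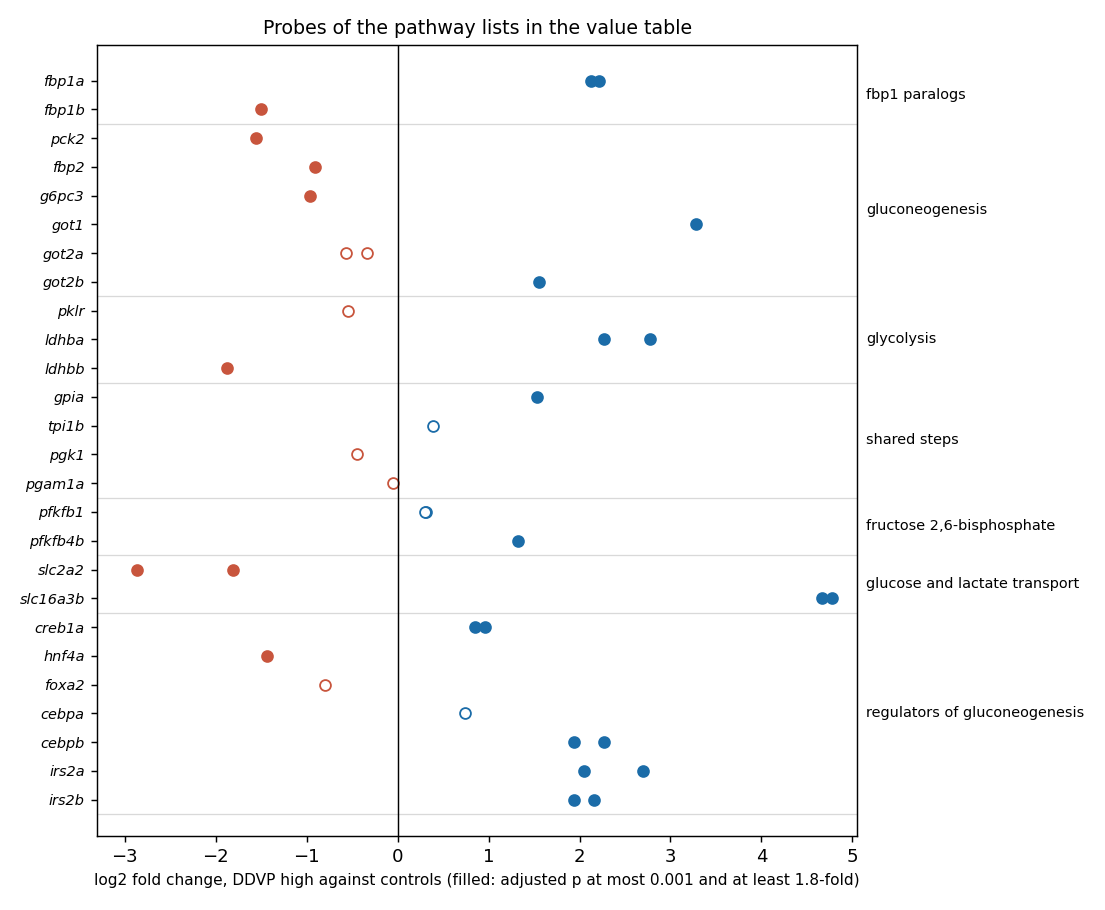
Log2 fold change at the high concentration against controls (horizontal axis) for the member probes and the pathway probes of the value table, 1 row a gene and 1 point a probe, blue above 0 and red below; filled points passed the adjusted p and fold limits. Genes of each list lie on both sides of 0 in 5 of the 6 lists, the exception being the genes of the PFKFB enzymes.

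On the glycolytic side, *ldhba* had a log2 fold change of 2.77 at high (2.27 in its other probe) and *ldhbb* one of -1.87, so the paralogous genes of lactate dehydrogenase B also parted. *gpia*, which encodes the reversible phosphoglucose isomerase, rose by 1.53. *pfkfb4b*, a gene for the enzyme that makes and removes the inhibitory sugar, rose by 1.33.

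Among transporters *slc2a2*, the hepatic glucose carrier gene, changed by -2.86 at high (-1.80 in its other probe). *slc16a3b*, a monocarboxylate transporter gene, was called as higher in both of its probes. Probe A_15_P409825 of *slc16a3b* lay between 10.68 and 11.02 at the high concentration and between 5.61 and 6.54 in the controls on the deposited log2 scale. On the fed arrays its signal to noise ratio was -0.48 to 2.44 and it was well above background on 2 of 4, as was the other probe, so the fitted differences of 4.67 and 4.77 rest on a baseline near background and are not read as exact folds. Of the regulators, *cebpb* (1.94 and 2.27), *irs2a* (2.69 and 2.05), *irs2b* (1.94 and 2.16) and *creb1a* (0.96 and 0.86) were called as higher at high in both of their probes, and *hnf4a*, a hepatocyte nuclear factor gene, as lower (-1.44). The *irs2b* probe with the value of 2.16 was also dim, with a signal to noise ratio of 0.75 to 2.42 on the fed arrays. For the *creb1a* probe with the value of 0.86 this ratio was 1.67 to 5.12. Neither of these probes reached the filter for testing on the feeding arrays. The insulin receptor substrates encoded by the *irs2* genes pass on the insulin signal, and the CREB protein of *creb1a* mediates the glucagon signal in mammals.

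The hepatocyte marker genes of the table fell at high as *fbp1b* did. Of the 12 hepatocyte markers listed only *cp* and *fgb*, which encode the plasma proteins ceruloplasmin and fibrinogen β, were in the table. *cp* had log2 fold changes of -0.36, -0.74 and -1.07, of which the last was called, and the probes of *fgb* changed by -2.04 and -1.09 at high. *apoa4b.1*, listed as an intestinal marker, changed by -2.19 and -3.10 at high. Their part in the fall of *fbp1b* was not tested. No exocrine pancreas marker was in the table.

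In the feeding experiment fish missed meals with no toxicant in the water. The authors ran it because they saw abnormal swimming and food left in the tanks at the mid and high concentrations. They also cited depleted zymogen granules in the pancreas and an earlier starvation study. From principal components, clustering and a second assay of selected genes, they concluded that lack of nutrients had no large part in the DDVP changes. Neither *fbp1a* nor *fbp1b* was in that assay. *fbp1b* was lower at the mid and high concentrations, and the part of reduced feeding in its values there was not tested. All 3 member probes passed the signal filter, with a median signal of 1379 to 2487 units for A_15_P116361, 590.5 to 974 for A_15_P206731 and 69696 to 138174 for *fbp1b* over a local background of at most 56.5 units. No member spot was saturated or marked as an outlier. On fed arrays *fbp1b* was brighter than 99.6% of all probes and the *fbp1a* probes than 91.1 and 84.2%, which ranks spots and not transcript numbers.

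*fbp1a* showed no detectable change without food. On the log2 scale of normalized median signal, A_15_P116361 read 11.22, 11.00, 10.51 and 10.77 on the fed arrays, 10.71, 10.67, 10.91 and 10.97 after 29 h without food and 10.64, 10.77, 11.29 and 11.06 after 50 h. The groups overlapped throughout. The log2 fold change was -0.06 at 29 h (95% confidence interval -0.44 to 0.32) and 0.07 at 50 h (-0.32 to 0.45) against fed, with limma adjusted p of 0.877 and 0.855. In A_15_P206731 it was 0.04 and -0.03 (adjusted p 0.911 and 0.935).

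Within slides the *fbp1a* differences had both signs. In A_15_P116361 the difference between 50 h and fed was -0.58 on slide 1, 0.02 on slide 2 and 0.40 on slide 3, and in A_15_P206731 it was -0.61, -0.09 and 0.30. These are differences of 1 or 2 arrays each and carry no test. The fed array of slide 1 had the highest *fbp1a* value among the fed arrays in both probes.

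**Figure D4:**
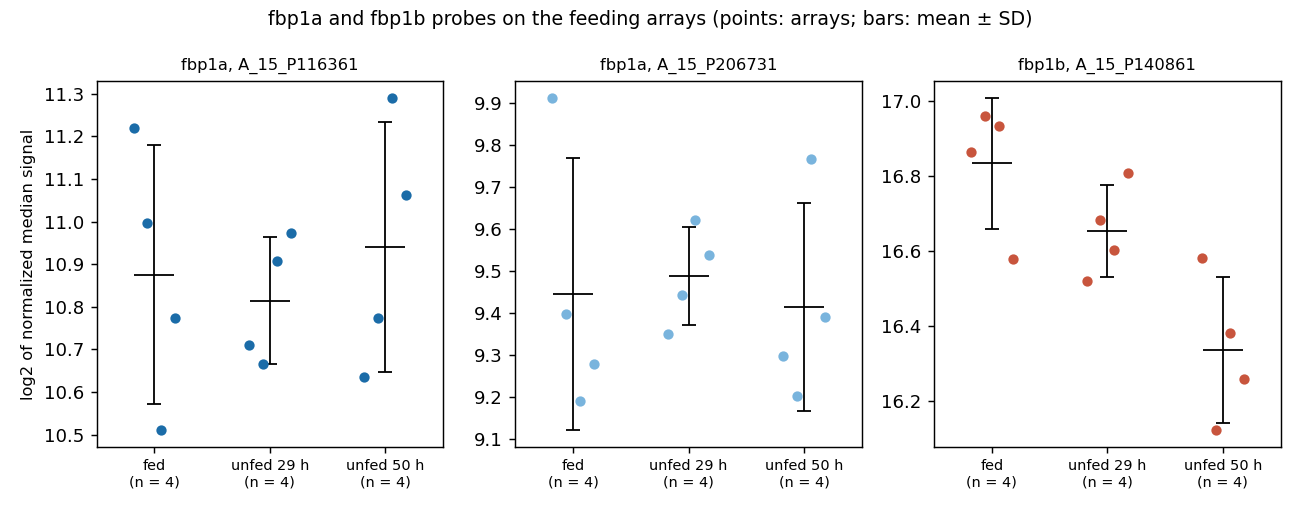
Log2 of the normalized median signal (vertical axis, with its own range in each panel) of the 3 probes on the 12 feeding arrays, by feeding group; points are arrays, black bars the mean ± SD. The *fbp1a* groups overlap, while in *fbp1b* 3 of the 4 unfed 50 h arrays lie below all fed arrays and the remaining one, at 16.58, is level with the lowest fed array.

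*fbp1b* had a lower mean after 50 h without food, short of the threshold used here. Its arrays read 16.86, 16.96, 16.93 and 16.58 when fed, 16.52, 16.68, 16.60 and 16.81 after 29 h and 16.58, 16.12, 16.38 and 16.26 after 50 h. Only the highest unfed 50 h array reached the lowest fed one. The log2 fold change was -0.50 at 50 h (95% confidence interval -0.77 to -0.22, limma p 0.00214, adjusted p 0.0424) and -0.18 at 29 h (-0.46 to 0.10, adjusted p 0.431), and between 50 h and 29 h it was -0.32 (unadjusted p 0.0286, adjusted p 0.786).

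At an adjusted p of at most 0.001 the 50 h comparison called 3 of 16031 probes (0.0187%), the 29 h comparison 1 (0.00624%) and 50 h against 29 h none, where limma gave 1003 probes an unadjusted p of at most 0.05, and no member was among the calls. At 0.05, a looser limit, *fbp1b* would be called at 50 h together with 6.01% of all probes. Without replicate 2 of 50 h, the array with high muscle markers and the lowest *fbp1b*, the change was -0.43 (adjusted p 0.106) and the count of called probes 22. Within slides 1, 2 and 3 the *fbp1b* difference between 50 h and fed was -0.28, -0.82 and -0.26. The summed level of 10 exocrine pancreas markers was 18.32 to 19.56 on the fed arrays, 16.66 to 18.31 at 29 h and 16.71 to 19.63 at 50 h.

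Markers of other cell types were read on the same arrays, and none was called. The summed level of 2 matched macrophage markers of 6 listed was 10.32 to 11.16 on the fed arrays, 10.97 to 11.97 at 29 h and 11.33 to 12.10 at 50 h. Thus 50 h lay wholly above fed, as it did in 6.28% of the 16031 probes tested. Of these markers *mpeg1.1*, the gene of a macrophage perforin, had a log2 fold change of 1.16 at 50 h (limma adjusted p 0.0243) and 0.93 at 29 h (adjusted p 0.055), short of the threshold like *fbp1b*. The other, *csf1ra*, did not reach the signal filter (mean log2 value 5.86, against 11.29 for *mpeg1.1*), so the sum mostly repeats *mpeg1.1*. The sum of 5 matched kidney markers of 6 listed was 10.60 to 12.20 on the fed arrays, 11.65 to 13.52 at 29 h and 12.02 to 13.15 at 50 h. Of them *cdh17* had a log2 fold change of 1.67 at 50 h (limma adjusted p 0.0935), whereas *slc20a1a* had one of -0.17 (adjusted p 0.664). The remaining matched kidney markers did not reach the signal filter. The sum of 6 hepatocyte markers was 19.89 to 19.98 on the fed arrays, 19.80 to 20.02 at 29 h and 19.98 to 20.09 at 50 h. The sums of the erythrocyte, intestinal and egg protein markers overlapped between 50 h and fed. The intestinal sum mostly repeats *apoa4b.1* (mean log2 value 17.70, against 11.48 for *fabp2* and 10.53 for *vil1*). At 50 h *fabp2* had a log2 fold change of 1.87 and *vil1* of 2.04 (limma adjusted p 0.570 and 0.565). *apoa4a* had one of -0.62 (adjusted p 0.732), and the probes of *apoa4b.1* had -0.03 and -0.38 (adjusted p 0.896 and 0.0907). The part of these markers in the *fbp1b* values was not tested.

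The paralogs were also compared with each other on the feeding arrays. *fbp1a* minus *fbp1b* per array was -5.94, -5.35, -5.09 and -5.20 in fish unfed for 50 h and -5.64, -5.96, -6.42 and -5.80 in fed fish. The groups overlapped through replicate 1 of 50 h. The mean difference between groups was 0.56 on the log2 scale with a two-sided exact permutation p of 0.0857, where 4 arrays against 4 cannot go below 0.0286. Without replicate 1 of 50 h the difference was 0.75 with an exact p of 0.0286, the smallest that 3 against 4 arrays allow. This p follows from leaving out the array through which the groups overlapped. Without any other single array the exact p was 0.0857 to 0.171, and with arrays permuted within slides it was 0.111.

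Set directly against each other on the deposited values, the effect of the high concentration exceeded that of 50 h without food by 2.16 in A_15_P116361 and 2.20 in A_15_P206731 (log2, SE 0.20 and 0.22, limma adjusted p 1.47e-10 and 6.48e-10). For *fbp1b* the difference was -1.03 (SE 0.23, adjusted p 1.16e-04), a lower value under DDVP than without food, each relative to its own controls. These controls differ in time since feeding. By the authors' account the DDVP controls were fed before the 24 h exposure and again several hours later, and the fed fish 4 h before harvest. What this difference adds to the contrast was not tested. All 3 probes passed in this contrast, as 71.9% of the 5481 probes did. The contrast contains the DDVP response named in the selection rule, so its p values are descriptions as well. According to the methods, the DDVP and feeding arrays were read on different scanners, and the bearing of this on the contrast was not tested. The call for *fbp1b* was lost without high replicate 1, where the difference was -0.84 and under the fold limit.

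No gene of the pathway lists was called in a feeding comparison, among 49 genes with 67 probes tested. The lists had a median log2 fold change of -0.01 at 29 h and -0.06 at 50 h, beside -0.02 and -0.06 over all probes tested. Named here after their values were seen, the lowest adjusted p at 50 h belonged to *pklr*, the liver pyruvate kinase gene (-1.13, limma adjusted p 0.00374), and *got1* (-0.86, adjusted p 0.00837). *pklr* also had negative estimates under DDVP, -0.85 at low, -0.42 at mid and -0.54 at high, of which only the first was called. *got1*, which had a positive change under DDVP, had a negative estimate without food (adjusted p 0.00412 at 29 h). *pck2* stood at -0.11 and -0.17 and *g6pc3* at -0.08 and -0.00343, with adjusted p of at least 0.44.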

How the data were processed

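Members and gene lists were chosen with earlier results of these data known. The table that the authors deposited covers 5481 probes and all 32 arrays on a log2 scale. According to the methods the authors quantile normalized the median spot signal, removed a batch effect in Partek Genomics Suite and kept probes that differed among the groups, and for the DDVP arrays they joined scans at a pair of laser powers, taking bright spots from the weaker one. From which scan the bright *fbp1b* spot was taken is not given in the sources used here, and the effect on its values was not tested. The deposited scanner files of the 12 feeding arrays hold intensity values from Agilent Feature Extraction. For the member probes the deposited feeding values followed the processed signal with a probe-specific offset (residual SD at most 0.00216).

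Probes were named by accession through a RefSeq gene table of assembly GRCz12tu, used for names, chromosome and neighbours only. DDVP groups were compared with limma 3.58.1 in R 4.3.3 on the deposited log2 values, with 20 arrays in 1 fit, both control sets pooled and p adjusted by Benjamini-Hochberg over all 5481 probes (calls needed an adjusted p no higher than 0.001 and a 1.8-fold change, the limits of the methods). On the feeding arrays the median signal was quantile normalized without background subtraction, taken to log2 and averaged per probe, and the 16031 probes whose signal reached 3 times the background SD above background throughout 1 or more groups were tested at an adjusted p of at most 0.001. The contrast of DDVP and food effects used all 32 arrays. The difference between paralogs was tested by a two-sided exact permutation of arrays. Marker sums add linear signals, 1 probe a gene. On simulated data with 200 probes changed by 2 on the log2 scale, 195 were called for the high concentration (5481 probes) and 158 for 50 h against fed (16031 probes), with 0 false calls. The simulated noise was normal and independent between probes and arrays, and few probes changed, unlike in the data. These counts check the fitting steps and do not give the error rate or power of the results here. The number of arrays limits the precision. Figures used matplotlib in python 3.11.15. Named are all member probes, list genes with a call at the high concentration or in feeding, each by its brightest probe, and the 5 genes with the highest correlation to each paralog over the 20 DDVP arrays. Alternatives covered the control set, variance moderation, centring, fold filter, arrays fitted, background method, filter, slide, replicate block, deposited values, threshold and single arrays left out. The normexp alternative used the median signal in place of the mean signal. Probe sequences were not used here, and whether a probe also binds the transcript of the other paralog was not tested.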

Additional observations from a re-analysis of the deposited data

Results flagged for a closer look

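In probe A_15_P116361 of *fbp1a*, replicate 2 of control set 1 read 10.58 on the deposited log2 scale, while the other 3 arrays of that set lay between 11.13 and 11.17. It is flagged because its gap to the nearest of the others was 0.934 of the range of the group, above Dixon's 95% limit for 4 arrays, a limit that chance passes in about 1 of 20 groups. All 3 member probes were screened in this way in every group, and no other array was flagged. A flag by chance would therefore not be unusual here. The flagged array read 9.29 in A_15_P206731, the lowest of all controls in that probe, and 14.53 in *fbp1b*. Without it the log2 fold change of A_15_P116361 at high was 2.15, against 2.21 with it.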

How the results depend on the processing

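Of 695 recomputed values over the members, counts of called probes and lists, 619 kept their direction and their side of the threshold or moved by less than the spread between replicates. Fits with a single control set could not move an estimate, because the sets share their means in every probe. The DDVP estimates were likewise unmoved by the alternatives of variance moderation, fold filter, arrays fitted and replicate block, which could change only errors and calls. Under DDVP the *fbp1a* calls at every concentration and the *fbp1b* call at high held in all alternatives tried, with *fbp1a* A_15_P116361 between 2.15 and 2.26 and *fbp1b* between -1.72 and -1.31 at high when single arrays were left out. Leaving out single arrays gave *fbp1b* -0.082 to 0.045 at low, -1.02 to -0.83 at mid, -0.99 to -0.81 for the step from low to mid and -1.25 to -0.84 for the contrast with 50 h without food. Centring arrays on their medians gave *fbp1b* 0.023 at low. The step from mid to high in A_15_P206731 ranged from -0.15 to 0.044, with 3 of 8 values reversed.

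The count of called probes at low was 2612 without the fold filter, against 1683 with it. The count for the step from mid to high (75) was 37 without variance moderation, 0 with only the groups compared in the fit and 37 to 102 with single arrays left out.

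On the feeding arrays *fbp1a* had no stable direction. With single arrays left out A_15_P116361 ranged from -0.18 to 0.055 at 29 h and -0.055 to 0.18 at 50 h, and A_15_P206731 from -0.042 to 0.20 and -0.15 to 0.13. With the processed signal minus the 75th percentile A_15_P206731 was -0.074 at 29 h and A_15_P116361 -0.043 at 50 h, and the list medians were -0.12 and -0.16. Within slides 1, 2 and 3, the 29 h difference from fed was -0.53, 0.15 and 0.20 in A_15_P116361, -0.52, 0.33 and 0.26 in A_15_P206731 and -0.26, -0.34 and 0.23 in *fbp1b*. The 50 h difference from fed was -0.58, 0.02 and 0.40, then -0.61, -0.09 and 0.30, and for *fbp1b* -0.28, -0.82 and -0.26. Between 50 h and 29 h, A_15_P116361 gave -0.13 and A_15_P206731 -0.42 on slide 2, and *fbp1b* -0.020, -0.48 and -0.49.

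The adjusted p of *fbp1b* at 50 h was between 0.0226 and 0.118 over its alternatives, and at an adjusted p of at most 0.05 its change of -0.50 would count as called. Calls at 29 h and 50 h were 2 and 9 with the processed signal, 31 and 56 in the deposited table (with 1 between 50 h and 29 h), 924 and 963 (with 1) at 0.05, and 0 and 1 with slide as a block. At 50 h 1 was called with no filter on dim probes. Leaving out single arrays gave 0 to 3 at 29 h and 1 to 22 at 50 h. For *fbp1a* minus *fbp1b* it gave 0.41 to 0.75, past 0.05 only without replicate 1 of 50 h.

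Replicate numbers did not pair the samples (correlations of deviations between same-numbered arrays -0.28 to 0.33 under DDVP and -0.30 to 0.37 in feeding). With the replicate number as a block, 1 call count moved by more than 1.5 times, at 29 h to 0 probes, and *fbp1b* at high stayed at -1.50 (adjusted p 3.07e-08) while its adjusted p at 50 h was 0.0839. The exact test over pairs gave 0.25. The cause of these differences was not tested. The DDVP arrays were judged from the authors' normalized values, so signal over background there was not seen.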
